A study of Mus musculus with 10 samples.

Results

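Mice make cholesterol from acetyl-CoA by a long chain of enzymes, take it up from lipoproteins, move it between membranes and export it. The results here cover 30 genes of that system in the lactating mammary gland, chosen by gene symbol: 8 for the mevalonate and isoprenoid steps, 12 for the squalene and sterol steps, 4 for sterol sensing, 4 for lysosomal exit, transfer and esterification, and 2 for efflux. Of the 30 genes, 27 had at least 1 probeset whose annotation gives that symbol alone, on 53 of the 22626 probesets other than controls, and 26 genes were tested on 40 probesets. Acat2, Insig1 and Soat1 were not analysed here.

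The study set 2 inbred strains side by side for differences in maternal performance, QSi5 and CBA (CBA/CaH), with 5 females of each strain and 1 array for each mouse. All the mice were in their first lactation and the gland was collected at lactation day 9, with no treatment and no engineered allele named in the sources used here. The series record has the fourth inguinal glands taken when the dams were force weaned after 9 days, and the methods name the right inguinal gland. The methods have the females pair-mated at 8 weeks of age, and their age at collection follows only from that and the day of lactation. RNA was hybridised to the Affymetrix MOE430 2.0 chip for CBA replicates 1, 4 and 5 and QSi5 replicates 3, 4 and 5, and to the MOE430A 2.0 chip for CBA replicates 2 and 3 and QSi5 replicates 1 and 2, per the sample records (the methods name the second chip only). Values are log2 RMA signals, so 1 unit is a 2-fold step, and a difference is always QSi5 minus CBA. The tissue is a mixture of cells, in which fewer cells of a type and less RNA in each cell cannot be told apart. The number of arrays, 5 in each strain, limits the precision of every difference.

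In cholesterol synthesis HMG-CoA is made from acetyl-CoA and reduced to mevalonate. Mevalonate is built up through isoprenoid units to squalene, which is closed into lanosterol and trimmed to cholesterol. When sterol in the endoplasmic reticulum runs low, SCAP carries the transcription factor SREBP2 to the Golgi, where it is cut and freed to switch on genes of synthesis and uptake. When sterol is plentiful, INSIG proteins hold SCAP back. Milk fat globules leave the secretory cell wrapped in membrane that holds cholesterol, and part of that cholesterol is made in the gland while the rest comes from blood lipoproteins.

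Of the 26 tested genes, Hmgcs1, which makes HMG-CoA, and Stard4, which ferries sterol between membranes, were lower in QSi5, none was called higher, and 24 were not called. The call is an adjusted p under 0.05 from limma with Benjamini-Hochberg adjustment over 11412 probesets, each gene standing by its brightest probeset. All 26 of these probesets passed the minimum of 20 (unlogged) in both strains, while 4 of the 40 tested probesets passed it in 1 strain alone. That rule called 2.94% of all tested probesets, 1.51% as lower and 1.44% as higher in QSi5. At an unadjusted p under 0.01 the same 2 genes were lower and none was higher, where 6.49% of all probesets passed, 3.42% as lower and 3.08% as higher. At an unadjusted p under 0.05, 4 of the 26 genes were lower and 1 was higher, where 8.24% and 6.88% of all probesets were. Differences lay below 0 for 19 genes and above 0 for 7, with a median of -0.14, against a median of 0.00 over all tested probesets, of which 49.8% lay below 0. A single mouse, QSi5 replicate 2, was the lowest of the 10 in many of these genes. Over the other 4 QSi5 mice the median difference of the 26 genes was -0.02.

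Promoter sequence is shown for 3 genes: Hmgcs1, the called gene whose promoter can be printed, Idi1, the next lowest in the synthesis pathway, and Tm7sf2, the highest. Each is the 250 bases before the RefSeq start (GRCm38.p6), 5′ to 3′ along the gene, and capitals mark matches, on either strand, to TCACNCCAC (a form of the sterol regulatory element that SREBP proteins bind), CCAAT (the NF-Y box) and GGGCGG (the Sp1 box). None of the marked stretches overlap.
Hmgcs1, chr13:119690101-119690350, plus strand: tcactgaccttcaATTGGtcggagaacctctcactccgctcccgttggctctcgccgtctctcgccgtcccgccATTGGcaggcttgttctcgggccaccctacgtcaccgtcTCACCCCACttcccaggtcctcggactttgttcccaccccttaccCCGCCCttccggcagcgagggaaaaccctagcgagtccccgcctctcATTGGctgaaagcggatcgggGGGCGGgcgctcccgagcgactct
Idi1, chr13:8885356-8885605, plus strand: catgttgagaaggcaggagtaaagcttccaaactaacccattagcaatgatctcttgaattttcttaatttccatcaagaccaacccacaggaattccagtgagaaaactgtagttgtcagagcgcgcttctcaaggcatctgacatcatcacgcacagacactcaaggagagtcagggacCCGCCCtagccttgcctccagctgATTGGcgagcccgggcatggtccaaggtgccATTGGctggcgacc
Tm7sf2, chr19:6067851-6068100, minus strand: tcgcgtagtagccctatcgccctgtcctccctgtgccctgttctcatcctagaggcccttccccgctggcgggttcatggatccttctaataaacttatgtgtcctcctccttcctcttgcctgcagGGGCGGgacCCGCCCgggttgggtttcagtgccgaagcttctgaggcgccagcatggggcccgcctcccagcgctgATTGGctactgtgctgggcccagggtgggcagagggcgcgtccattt

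Windows were found for 24 of the 30 genes, 30 windows in all. The longest motif matched in 1 of the 30 windows (3.33%), that of Hmgcs1, as TCACCCCAC starting 137 bases before the start, against 1.05% of 32851 promoters of the same length. CCAAT matched in 21 of the 24 genes and in 70% of their windows, where 33.8% of all promoters held it. GGGCGG also matched in 21 genes, in 76.7% of their windows against 32.7% of all promoters. These matches are a description of the letters and were not set against the strain differences.

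Hmgcs1, the cytosolic synthase that joins acetoacetyl-CoA and acetyl-CoA into HMG-CoA, was the larger of the pair of called differences. On its brightest probeset the CBA mice, replicates 1 to 5, were at 8.08, 8.22, 8.16, 7.49 and 7.65. The QSi5 mice were at 7.46, 5.89, 6.77, 6.48 and 6.93. Every QSi5 mouse was lower than every CBA mouse, although the highest QSi5 mouse and the lowest CBA mouse were nearly level, and QSi5 replicate 2 was the lowest. The means were 7.92 ± 0.33 in CBA and 6.71 ± 0.58 in QSi5 (SD, n = 5 each), a difference of -1.21 ± 0.25 (SE), or 2.32-fold lower, with an adjusted p of 0.0218 by limma. Strains that did not overlap were found for 5.14% of all tested probesets, 2.63% with every QSi5 mouse below and 2.51% with every QSi5 mouse above.

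The other tested probesets of Hmgcs1 gave the same picture. On the first of them CBA mice were at 7.19, 7.06, 7.13, 6.86 and 6.72 and QSi5 mice at 6.55, 4.66, 5.71, 5.73 and 5.92, a difference of -1.28 ± 0.27 (adjusted p = 0.0229). On the next, CBA mice were at 7.45, 7.42, 7.34, 7.11 and 7.00 and QSi5 mice at 6.81, 5.0, 6.10, 5.95 and 6.28, a difference of -1.24 ± 0.26 (adjusted p = 0.0236). The strains were apart on both, with QSi5 replicate 1 the closest to CBA each time. The probesets read 1 transcript in the same mice and are not separate evidence. A dimmer probeset, between 3.34 and 4.18 in the 10 mice, did not pass the minimum and gave -0.24 (adjusted p = 0.538) by limma with no minimum set.

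Without QSi5 replicate 2 the Hmgcs1 difference was -1.01 (adjusted p = 0.0311). It was -1.01 within the MOE430 2.0 arrays (adjusted p = 0.0515) and -1.51 within the MOE430A 2.0 arrays (adjusted p = 0.307), which hold 2 mice of each strain. The call did not survive leaving out CBA replicate 1, 2 or 3 or QSi5 replicate 3 or 4. The adjusted p was then 0.0526, 0.0647, 0.0521, 0.0569 and 0.0599 by limma, and the difference stayed between -1.23 and -1.14. These values are for the brightest probeset. The other tested Hmgcs1 probesets were called within the MOE430 2.0 arrays, at -1.14 and -1.08 (adjusted p = 0.0121 and 0.0183 by limma). Neither was called within the MOE430A 2.0 arrays.

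Stard4 encodes a small soluble protein that shuttles sterol from the plasma membrane to the endoplasmic reticulum and recycling compartment. On its brightest probeset the CBA mice were at 6.23, 6.15, 6.24, 6.38 and 6.05, and the QSi5 mice at 5.75, 4.68, 5.65, 4.92 and 5.44. All QSi5 mice were lower than all CBA mice, and QSi5 replicates 2 and 4 were the lowest. The difference was -0.92 ± 0.19, from a CBA mean of 6.21 ± 0.12 to a QSi5 mean of 5.29 ± 0.46, which is 1.90-fold lower (adjusted p = 0.0207).

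The second Stard4 probeset was dimmer, with an unlogged mean of 24.9 in CBA and of 13.4 in QSi5, so it entered the test through the strain where it was higher and adds no separate support. CBA mice were at 4.68, 4.53, 4.67, 4.67 and 4.65, and QSi5 mice at 3.64, 3.49, 3.96, 4.04 and 3.58. The 5 CBA mice lay within a narrow band and the whole QSi5 group lay under it, with a difference of -0.90 ± 0.12 and an adjusted p of 0.000959. Without QSi5 replicate 2 the differences were -0.77 (adjusted p = 0.0296) and -0.84 (adjusted p = 0.00289). Without QSi5 replicate 4 the brightest probeset missed the threshold (adjusted p = 0.0562), as it did within each chip type (0.0984 and 0.365). The dimmer probeset gave -0.81 within the MOE430 2.0 arrays and -1.03 within the MOE430A 2.0 arrays (adjusted p = 0.0441 and 0.121 by limma).

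**Figure D1:**
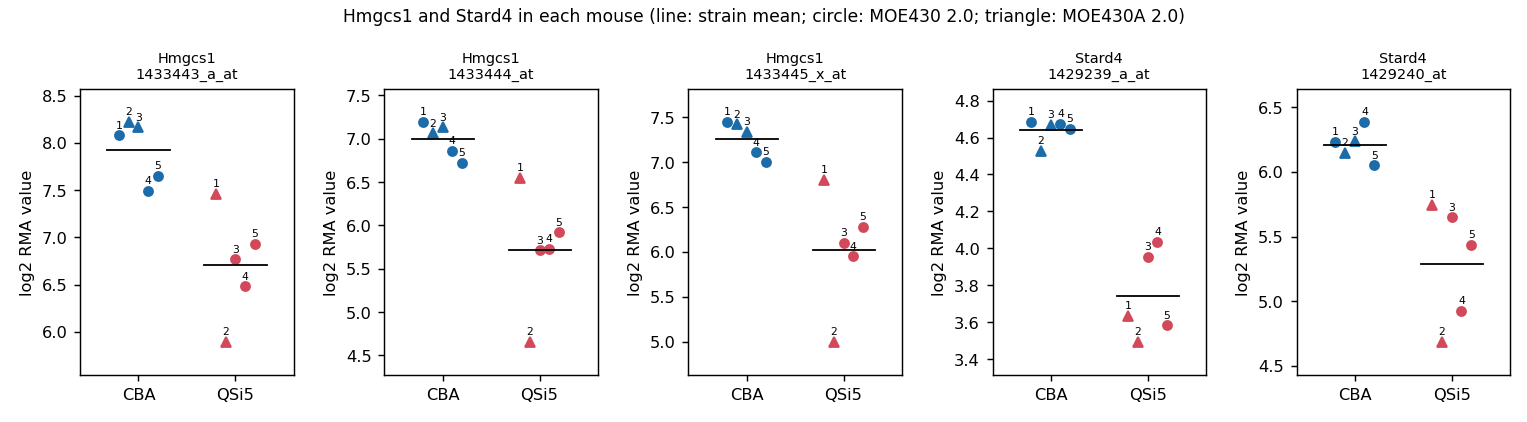
Each point is 1 mouse, by strain, and gives its log2 RMA signal on a tested probeset of Hmgcs1 or Stard4, with horizontal lines for the strain means and the chip type marked by the symbol. In every panel the 5 QSi5 points lie under the 5 CBA points, and on the brightest Hmgcs1 probeset the lowest QSi5 point, at 5.89, is replicate 2.

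In the rest of the mevalonate and isoprenoid branch 6 tested genes were not called, and their brightest probesets differed by -0.60 to 0.34. Idi1, which turns isopentenyl diphosphate into the dimethylallyl form, was at 6.93, 7.05, 7.18, 7.10 and 6.93 in CBA and at 7.13, 5.29, 6.53, 6.45 and 6.81 in QSi5. QSi5 replicate 1 was among the highest of the 10 mice and replicate 2 was far under all others, so the strains overlapped. The difference was -0.60 ± 0.27 (adjusted p = 0.324), and -0.31 without QSi5 replicate 2. Its second probeset ran from 5.77 to 7.16 in CBA and from 4.39 to 6.79 in QSi5, with a difference of -0.85 ± 0.40 (adjusted p = 0.349), and -0.56 without that mouse.

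Fdps, which condenses isoprenoid units into farnesyl diphosphate, had the highest difference of this branch, 0.34 ± 0.31 (adjusted p = 0.660). CBA mice were at 7.27, 6.50, 6.43, 8.03 and 7.10 and QSi5 mice at 7.67, 6.55, 7.65, 7.56 and 7.61. QSi5 replicates 1, 3, 4 and 5 stood close together while CBA spanned a range that held all of them. The kinases and the decarboxylase that work up mevalonate, Mvk, Pmvk and Mvd, differed by -0.14 ± 0.12, -0.15 ± 0.15 and -0.13 ± 0.21, and the 95% intervals for these 3 genes reached from -0.59 to 0.32.

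Ggps1, which makes the geranylgeranyl group used to anchor proteins to membranes, was read by 2 tested probesets. The brightest gave -0.19 ± 0.21 (adjusted p = 0.734). On the other tested probeset CBA mice were at 3.98, 3.87, 3.88, 4.21 and 4.11 and QSi5 mice at 4.43, 4.44, 4.06, 4.04 and 4.68, a difference of 0.32 ± 0.14 (adjusted p = 0.290 by limma). QSi5 replicates 3 and 4 lay within the CBA range there, and the probeset passed the minimum through QSi5 alone (unlogged means of 16.1 in CBA and 20.1 in QSi5).

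None of the 12 squalene and sterol genes was called, with differences from -0.34 to 0.41 and a median of -0.08. Tm7sf2, a sterol reductase that acts after the ring is closed, stood highest. CBA mice were at 6.68, 6.99, 6.90, 7.11 and 6.47, and QSi5 mice at 7.43, 6.94, 7.25, 7.08 and 7.52. Replicates 2 and 4 of QSi5 were inside the CBA range and the other 3 QSi5 mice were over it, with a difference of 0.41 ± 0.15 (adjusted p = 0.203 by limma). Lbr, the nuclear envelope protein with the same reductase activity, differed by 0.12 ± 0.19.

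Ebp, an isomerase that moves a double bond within the sterol ring, was at 8.13, 8.18, 8.26, 8.59 and 8.25 in CBA and at 8.41, 8.09, 8.47, 8.35 and 8.54 in QSi5. The groups were intermixed, and the difference of 0.09 ± 0.12 had a 95% interval from -0.17 to 0.36. Fdft1, which joins farnesyl units into squalene, had 4 tested probesets. The brightest gave -0.02 ± 0.12 and another -0.21 ± 0.13, while the dimmer pair gave 0.21 ± 0.10 and 0.28 ± 0.11. On the last of these CBA mice were at 4.06, 4.23, 3.85, 4.21 and 4.27 and QSi5 mice at 4.21, 4.39, 4.38, 4.60 and 4.44. QSi5 replicate 1 was the only one of its strain inside the CBA range on that probeset (adjusted p = 0.254 by limma). Both dimmer probesets passed the minimum through QSi5 alone, with unlogged means of 19.1 and 17.4 in CBA and of 22.1 and 21.2 in QSi5.

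Sqle, the epoxidase that opens the way from squalene to sterols, was at 7.10, 7.10, 7.21, 7.36 and 7.11 in CBA and at 7.35, 5.49, 7.50, 7.15 and 7.21 in QSi5. Apart from replicate 2 the QSi5 mice ran from 7.15 to 7.50, with replicate 3 over the highest CBA mouse, and the difference of -0.24 ± 0.31 became 0.12 without that mouse. Cyp51, the lanosterol demethylase, was at 6.24, 6.43, 6.43, 6.19 and 6.04 in CBA and at 6.48, 4.95, 5.97, 6.12 and 6.34 in QSi5. Its difference of -0.29 ± 0.24 became -0.04 without replicate 2. Nsdhl, a dehydrogenase of the demethylation complex, differed by 0.04 ± 0.26 and by 0.27 without that mouse.

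The remaining sterol genes gave small differences. Msmo1, the sterol methyl oxidase, differed by -0.34 ± 0.20 and Sc5d, the desaturase, by -0.30 ± 0.15, the lowest of this branch. Lss, which closes the ring to lanosterol, differed by -0.24 ± 0.19. Dhcr7, which catalyses a final reduction to cholesterol, differed by -0.14 ± 0.19, and Hsd17b7, a sterol ketone reductase, by 0.04 ± 0.16. The lowest adjusted p among these 5 genes was 0.376.

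**Figure D2:**
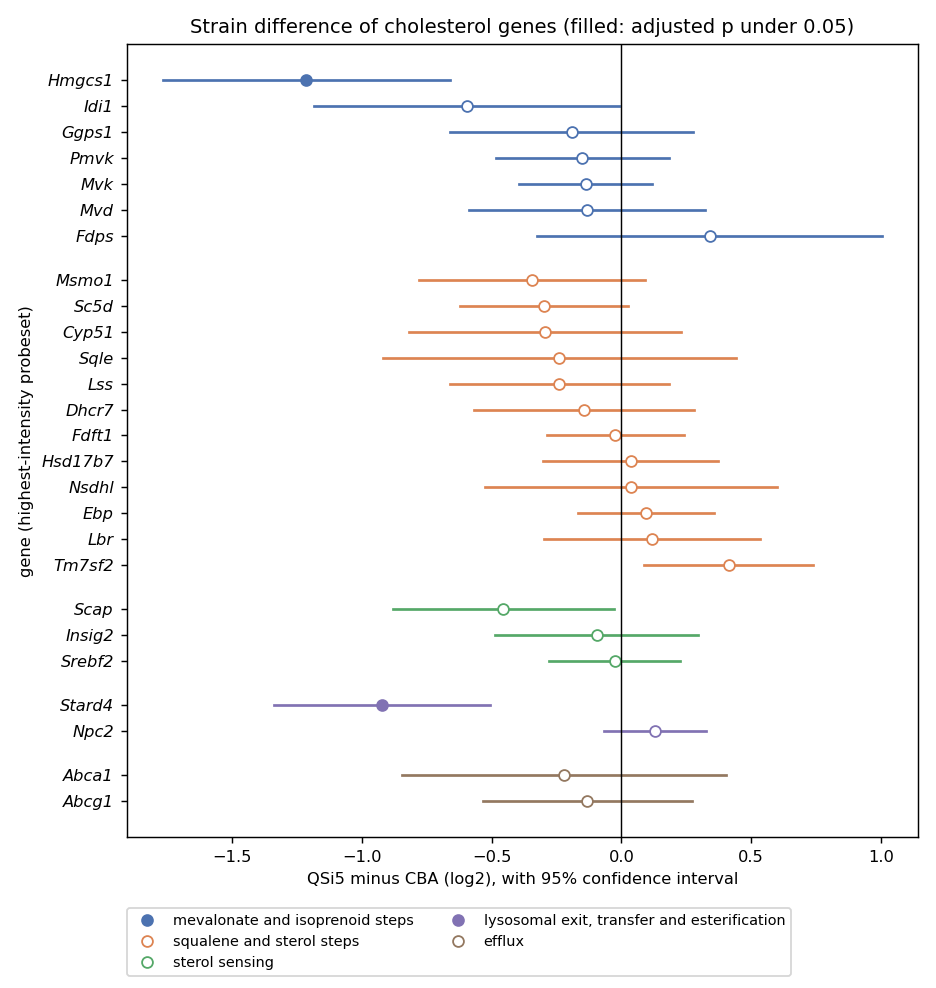
Each point is the QSi5 minus CBA difference (log2) of a tested gene on its brightest probeset, with its 95% interval from limma, grouped by role, and filled points pass an adjusted p of 0.05. Hmgcs1 at -1.21 and Stard4 at -0.92 are the only filled points, and Tm7sf2 at 0.41 is the highest.

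The sensing genes were not called. Scap, the escort of SREBP2, was at 7.11, 7.44, 8.11, 6.98 and 6.99 in CBA and at 6.74, 6.75, 6.92, 6.93 and 7.02 in QSi5. CBA replicates 2 and 3 were the highest of the 10, and QSi5 replicate 5 was the only mouse of its strain above the lowest CBA mice. The difference of -0.45 ± 0.19 (adjusted p = 0.294 by limma) was -0.07 within the MOE430 2.0 arrays and -1.03 within the MOE430A 2.0 arrays, which hold those CBA mice, and -0.26 without CBA replicate 3. Srebf2, the gene for SREBP2, differed by -0.03 ± 0.12 on the brightest probeset, with CBA from 5.34 to 5.77 and QSi5 from 5.41 to 5.75, and by -0.27 ± 0.15 on the other. Insig2, which retains SCAP when sterol is plentiful, differed by -0.09 ± 0.18 and 0.14 ± 0.13 on its tested probesets. As these are RNA levels, they carry no measure of SREBP2 cleavage.

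NPC1 and NPC2 pass cholesterol out of the lysosome after lipoproteins are digested. Npc2 was at 10.64, 10.76, 10.82, 10.69 and 10.64 in CBA and at 10.87, 10.67, 10.90, 10.90 and 10.84 in QSi5, with replicate 2 the only QSi5 mouse inside the CBA range. The difference was 0.13 ± 0.09 (adjusted p = 0.561). On its other probeset CBA mice were at 10.11, 9.93, 10.09, 10.12 and 9.82, QSi5 mice were at 10.35, 10.10, 10.39, 10.31 and 10.22, and the difference was 0.26 ± 0.10 (adjusted p = 0.247 by limma). Npc1 did not pass the minimum of 20 on the unlogged scale in either strain. CBA mice were at 3.36, 2.94, 2.76, 2.95 and 3.16 and QSi5 mice at 3.51, 3.46, 3.74, 3.43 and 3.45. Every QSi5 mouse was above every CBA mouse at these dim levels, and limma with no minimum gave 0.49 ± 0.12 with an adjusted p of 0.0730 over all 22626 probesets.

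ABCA1 and ABCG1 load cholesterol onto lipoproteins outside the cell. Abcg1 was at 4.70, 4.93, 5.12, 5.04 and 4.98 in CBA and at 4.71, 4.27, 4.77, 5.47 and 4.90 in QSi5. The QSi5 mice spread to both sides of CBA, with replicate 4 the highest and replicate 2 the lowest of the 10, and the difference was -0.13 ± 0.18. Abca1 ran from 4.28 to 5.55 in CBA and from 3.88 to 5.37 in QSi5, again with replicates 2 and 4 at the ends of QSi5. Its difference of -0.22 ± 0.29 was 0.28 within the MOE430 2.0 arrays and -0.97 within the MOE430A 2.0 arrays. The latter hold CBA replicate 3, the highest of CBA at 5.55, and QSi5 replicate 2, the lowest of QSi5 at 3.88.

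A single mouse stood apart in the genes of synthesis and, by a smaller margin, in the 7 other tested members. Averaged over the 19 tested synthesis genes, with each gene set to 0 at its mean over all mice, CBA mice were at -0.01, 0.03, 0.08, 0.22 and 0.07 and QSi5 mice at 0.21, -0.63, -0.01, -0.06 and 0.10. QSi5 replicate 2 stood well under the rest. QSi5 replicates 1 and 5 lay within the CBA range, and replicates 3 and 4 lay slightly below the lowest CBA mouse. Hmgcs1 is 1 of the 19. With it left out, QSi5 replicates 3 and 4 were at 0.02 and -0.02, within the CBA range of -0.05 to 0.22, and QSi5 replicate 2 was at -0.58. The mean of the 7 mevalonate and isoprenoid genes, the called Hmgcs1 among them, was -0.15 and -0.16 in QSi5 replicates 3 and 4. It was 0.01 in CBA replicate 1, the lowest CBA mouse. Hmgcs1 alone was at -0.55 and -0.83 in those QSi5 mice and at 0.77 in that CBA mouse. QSi5 replicate 2 was the lowest of the 10 mice for 12 of the 19 synthesis genes (63.2%) and for 15 of the 26 genes (57.7%). Over all tested probesets it was the lowest in 15.7%. Among the 7 other tested members it was the lowest for 3 (42.9%), and its mean of -0.46 lay under the other mice (-0.15 to 0.33). It lay below the other 4 QSi5 mice in 22 of the 26 genes, against 31.1% of all probesets. These counts describe 1 mouse and have no replicate.

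**Figure D3:**
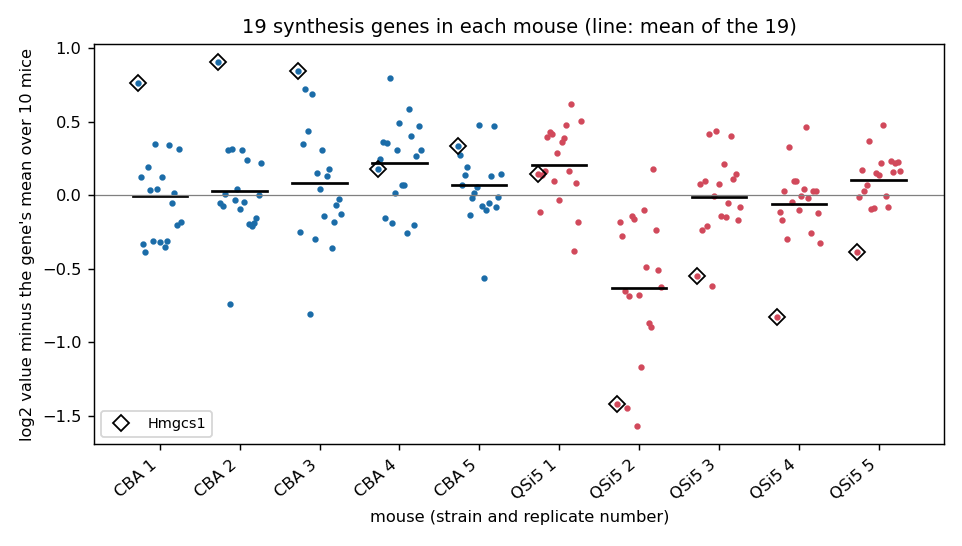
Dots give the log2 level of each of the 19 tested synthesis genes by mouse, relative to that gene's mean over the 10 mice, with Hmgcs1 in a diamond and a horizontal line for the mean of the genes. The mean sits at -0.63 in QSi5 replicate 2, while the other 9 mice range from -0.06 to 0.22.

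In that mouse 6 of the 19 synthesis genes (31.6%) lay more than 1 log2 unit under the mean of the other QSi5 mice, against 0.789% of all tested probesets. The gaps were -1.81 for Sqle, -1.44 for Idi1, -1.28 for Cyp51, -1.15 for Nsdhl, -1.07 for Fdps and -1.02 for Hmgcs1. These enzymes act from the start of the pathway to the late sterol steps. Hsd17b7 went the other way on its brightest probeset, 0.20 above the mean of the others. Taken relative to the mean level of the other 18 synthesis genes in the same mouse, Hmgcs1 was at 0.82, 0.92, 0.81, -0.04 and 0.28 in CBA and at -0.07, -0.83, -0.56, -0.81 and -0.51 in QSi5. CBA replicate 4 and QSi5 replicate 1 were almost level on that scale, and the other mice were well apart.

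**Figure D4:**
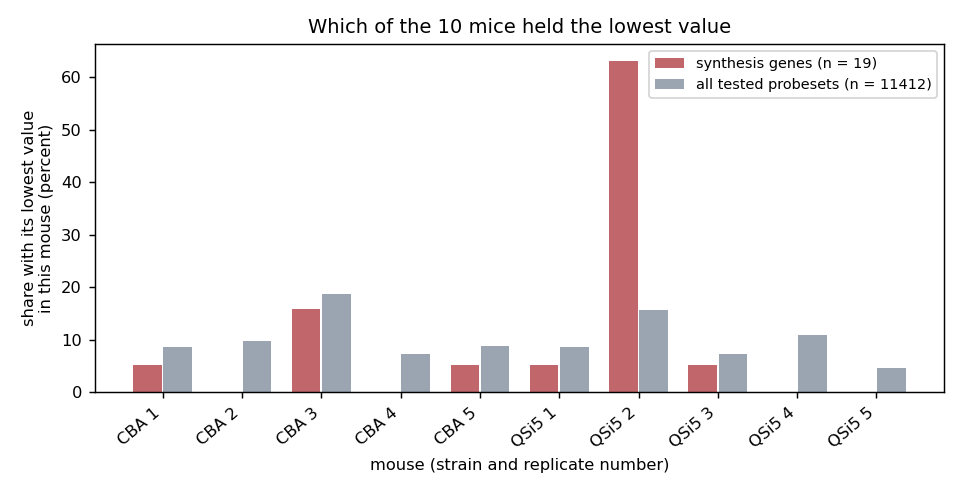
Bars give, for each of the 10 mice, the percent of tested synthesis genes and of all tested probesets in which that mouse had the lowest value. QSi5 replicate 2 reaches 63.2% of the synthesis genes and 15.7% of all probesets.

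A further 45 genes of the same system were listed, of which 29 were measured and 26 tested on their brightest probeset. On that probeset 1 gene was called higher and none lower, and 3 more had an unadjusted p under 0.01 in the lower direction, where 3.42% of all probesets did. Their median difference was 0.00. The gene called higher was Cyp7b1, the hydroxylase that turns oxysterols towards bile acids. CBA mice were at 3.67, 3.75, 3.50, 3.71 and 3.54 and QSi5 mice at 5.20, 4.51, 4.60, 4.28 and 4.79. The groups did not overlap, with a difference of 1.04 ± 0.15 (adjusted p = 0.0021). The probeset passed the minimum through QSi5 alone, at an unlogged mean of 25.6 against 12.4 in CBA, so no fold is given over the CBA level.

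Scarb1, the receptor that takes cholesterol esters from high-density lipoprotein, was at 8.23, 8.36, 8.83, 8.04 and 8.48 in CBA and at 7.90, 7.73, 7.84, 7.49 and 8.04 in QSi5 on its brightest probeset. QSi5 replicate 5 came up to the lowest CBA mouse and the others were lower. The difference of -0.59 ± 0.15 missed the threshold (adjusted p = 0.0656), as did that of another probeset, -0.62 ± 0.16 (adjusted p = 0.0686). The remaining probeset, at 7.51, 7.37, 7.75, 7.42 and 7.57 in CBA and 7.14, 6.65, 7.14, 6.65 and 7.13 in QSi5, passed it with -0.58 ± 0.14 (adjusted p = 0.0405), and did so in 6 of 20 alternative analyses.

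Lipa, the lysosomal lipase that frees cholesterol from its esters, had 3 tested probesets below 0, at -1.51 ± 0.42, -0.57 ± 0.22 and -0.45 ± 0.16, none called (adjusted p = 0.0898, 0.247 and 0.205 by limma). On the first of these CBA mice were at 5.78, 5.70, 7.64, 5.42 and 5.52 and QSi5 mice at 3.48, 4.97, 4.55, 5.17 and 4.34. CBA replicate 3 stood far over its strain there, and without it the difference was -1.10. QSi5 replicate 2 was the highest of its strain on the other Lipa probesets, opposite to its place in the synthesis genes. On the brightest of them the difference without that mouse was -0.59 (adjusted p = 0.0388). Dhdds, which extends isoprenoid chains towards dolichol, differed by -0.46 ± 0.14 (adjusted p = 0.128) on a probeset under the minimum in QSi5 (unlogged mean 19.4) and by 0.10 on its other probeset, and Gramd1a, a sterol transfer protein at membrane contacts, by -0.47 ± 0.14 (adjusted p = 0.127).

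**Figure D5:**
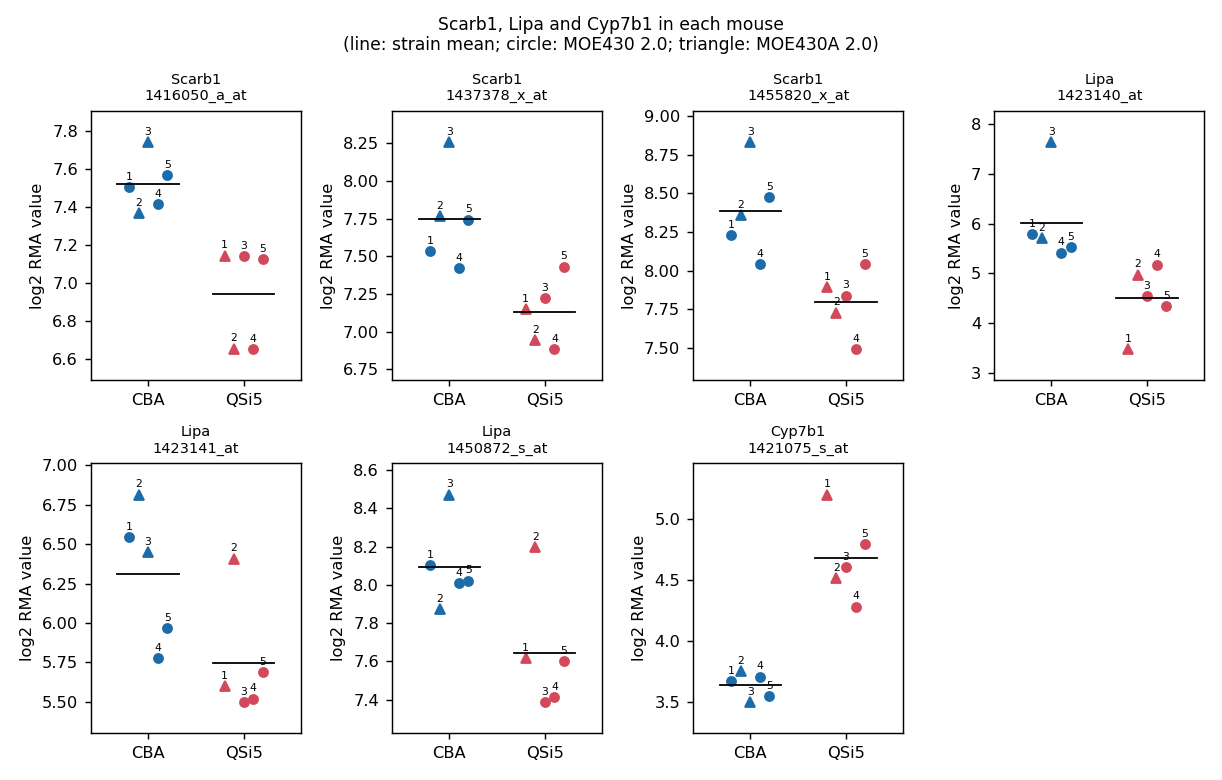
Points give the log2 RMA signal of each mouse, by strain, for further genes of cholesterol handling, with horizontal lines for the strain means. Cyp7b1 lies between 4.28 and 5.20 in QSi5 and between 3.50 and 3.75 in CBA, and Lipa has 1 CBA mouse at 7.64.

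The tissue label was checked on marker genes. All 8 markers of milk-secreting epithelium, the caseins and other milk proteins among them, passed the minimum, and their summed unlogged signal was 70920 to 77110 in CBA and 76180 to 80107 in QSi5. That sum is mostly milk protein signal, and the markers did not all move alike. Krt8, a keratin of luminal epithelium, was lower in QSi5, from 8.49 to 9.47 in CBA and from 7.99 to 8.24 in QSi5, a difference of -0.83 ± 0.16 (adjusted p = 0.0161), and it was called lower on its other tested probesets too (-0.75 and -0.87). For Lalba, a milk whey protein, all QSi5 values lay over those of CBA without a call (0.40 ± 0.11, adjusted p = 0.0845). On their brightest probesets the other 6 differed by -0.11 to 0.08, Krt18, the keratin partner of Krt8, by 0.08 ± 0.28. A much dimmer probeset of the casein gene Csn3 gave 0.97 ± 0.32 and was not called (adjusted p = 0.153 by limma). For adipocytes, 5 of 6 measured markers passed, with sums of 944 to 2161 and 785 to 1128. For macrophages 4 of 7 passed, with 448 to 2963 and 440 to 831. The adipocyte sum depends largely on 1 gene, Fabp4. In the macrophage sum the brightest marker was not the same in every mouse. Cd14 was at 11.41 in CBA replicate 1, while in QSi5 replicate 4 Lyz2 was at 8.72 and Cd14 at 7.51. Fabp4 had unlogged means of 976 in CBA and 588 in QSi5 and differed by -0.73 ± 0.23, without a call (adjusted p = 0.132 by limma). The other tested adipocyte markers differed by -0.11 to 0.19. Cd14 had unlogged means of 601 and 228 and differed by -1.40 ± 0.62, with overlapping strains and no call (adjusted p = 0.315 by limma). The other tested macrophage markers differed by -0.03 to 0.56. Lymphocyte sums, with 2 of 6 passing, were 164 to 181 in CBA and 162 to 602 in QSi5. QSi5 replicate 4 was the highest of the 10 mice for all 6 of these markers. Endothelial sums, with 2 of 6, were 89.1 to 103 and 73.3 to 94.5. No marker had a signal of 0 on these arrays. The myoepithelial sum, with 5 of 6 markers passing, was mostly Acta2, at unlogged means of 1953 in CBA and 1818 in QSi5. In QSi5 replicate 2 that sum was 3291, the highest of QSi5 (1339 to 3291) and within CBA (1662 to 3342). The adipocyte sum of that mouse was 845. The part of these cells in the low synthesis genes of that mouse was not tested, nor was that of these cells or of the lower Krt8 in the strain differences of Hmgcs1 and Stard4.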

How the data were processed

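Mammary RNA of 5 QSi5 and 5 CBA mice was profiled with 1 array per mouse. Per the labels, the authors used RMA (affy) for the deposited log2 values, a procedure of background correction, quantile normalization and probe summary, and normalized both chip types together on shared probesets. Versions of these tools are not given in the sources used here. RMA pulls the overall level of all arrays together, so differences are relative to the other probesets.

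Probesets named by exactly 1 symbol in the platform annotation stood for genes (20380 of 22626; 691 had several symbols and 1555 are unnamed here). Probesets were tested where 2 to the power of a strain's mean log2 value exceeded 20, which kept 11412. A 2-sided moderated test of the strain difference (limma 3.58.1 under R 4.3.3; functions lmFit, then eBayes; no covariate) was run on all of them with Benjamini-Hochberg adjustment, and checked on simulated data. Values with ± are SE for differences and SD for means. Nothing in the labels says more of how the mice were chosen or housed together. Each p-value sets a strain difference against the spread between these mice.

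All 30 members are named, a gene standing by its brightest probeset, with values per mouse for members at an unadjusted p under 0.05, the brightest gene of each role, and Fdps, Sqle, Cyp51 and Npc1, which were picked after their values were seen. The members and lists were chosen with earlier results of these data known. Further genes are named at an adjusted p under 0.05 or an unadjusted p under 0.01. Promoters come from RefSeq (GRCm38.p6), matched by symbol for 24 members. Alternatives were the minimum, a second normalization or centring, chip type as a block or alone, the replicate number as a block, an intensity trend, array weights and leaving out each mouse. The tables held 0 columns of other series.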

Additional observations from a re-analysis of the deposited data

Results flagged for a closer look

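In 15 of 116 groups of 5 mice, 1 mouse lay far from the rest of its strain by Dixon's test, and chance alone gives about 1 in 20 (5.8). Of the 15, 10 concern QSi5 replicate 2. The groups share mice and probesets of the same gene, so they are not independent.

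QSi5 replicate 2 was the lowest of its strain for Mvd, at 4.66 on 1 probeset (5.47 to 5.68 in the other QSi5 mice) and 5.19 on the other, for Fdps at 6.55 (7.56 to 7.67 in the others), for Sqle at 5.49 (7.15 to 7.50), for Msmo1 at 3.95 and for Npc2 at 10.67. It was also the lowest in the mean level of all tested members, -0.58 (the others from -0.03 to 0.11), and of the squalene and sterol genes, -0.59. For Lipa it was the highest of its strain instead, at 6.41 and 8.20 on 2 probesets.

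The other 5 concerned other mice. CBA replicate 4 was the highest of its strain for Ebp at 8.59 and in the mean level of the squalene and sterol genes at 0.21. CBA replicate 3 was the highest for Lipa at 7.64 on a further probeset (5.42 to 5.78 in the other CBA mice). CBA replicate 2 was the lowest for Stard4 at 4.53 on the dimmer probeset, where CBA spread little. QSi5 replicate 1 was the lowest for Hsd17b7 at 4.82.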

How the results depend on the processing

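The 20 alternatives include 10 that each leave out 1 mouse. No member was called higher in QSi5 in any of them. Counted on the brightest probeset of each gene, Hmgcs1 and Stard4 were both called lower in the main analysis. That count was 1 with a minimum of 100 (Stard4 was not tested) and 0 within the MOE430 2.0 and within the MOE430A 2.0 arrays, and it ran from 0 to 2 when 1 mouse was left out. It was 0 without QSi5 replicate 4, and 1 without CBA replicate 1, 2 or 3 or QSi5 replicate 3. The difference of the brightest Hmgcs1 probeset ran from -1.51 to -1.01 over the 20 alternatives and that of Stard4 from -1.04 to -0.77 over 19, all below 0. Their adjusted p ran from 0.00680 to 0.307 and from 0.0124 to 0.365, and they were called in 13 and 16 of these alternatives. Over all probesets 336 were called in the main analysis, 221 with a minimum of 100 (3476 tested), 146 within the MOE430 2.0 arrays and 65 within the MOE430A 2.0 arrays, where fewer mice enter. Leaving out 1 mouse gave 215 to 415, with 215 without QSi5 replicate 3 and 221 without QSi5 replicate 5.

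Replicate numbers did not pair the mice. Deviations of same-numbered mice correlated at -0.37 to 0.29, over 0.1 in 1 of 5 pairs, and not every mouse correlated best with its own number. With the replicate number as a block 260 probesets were called, Hmgcs1 and Stard4 stayed lower and called, and no other member's brightest probeset was called.

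The sign changed in at least 1 alternative for 16 probesets, none called and all within 0.24 of 0 in the main analysis. Within the MOE430A 2.0 arrays Mvk became 0.00139 and 0.0410, Fdft1 0.131, Lbr -0.191 and Npc2 -0.0150. Within the MOE430 2.0 arrays Mvd became 0.186, Sqle 0.0941, Nsdhl -0.0342, Srebf2 0.0498, Insig2 -0.0195, Abca1 0.279, Abcg1 0.138 and Dhdds -0.150. Array weights gave 0.0403 and 0.00278 for the Mvd probesets, and a second quantile normalization gave 0.0175 for Fdft1. With 1 mouse left out, Mvd ran from -0.165 to 0.113 and from -0.245 to 0.0319 on its probesets, Fdft1 from -0.0999 to 0.0620, Sqle from -0.378 to 0.124, Nsdhl from -0.114 to 0.266, Hsd17b7 from -0.00984 to 0.158, Srebf2 from -0.0905 to 0.0177, Insig2 from -0.205 to 0.0306, Abcg1 from -0.293 to 0.00754 and Dhdds from -0.0404 to 0.204. The cause was not tested. Probesets near the minimum, Npc1 among them, have little signal over background.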
